A study of Mus musculus with 12 samples.

Results

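Genes of neural identity and of the neuronal cytoskeleton were followed in mouse pluripotent cells that differ in Tbx3. The protein Tbx3 is a T-box factor that takes part in the gene network of pluripotent cells. The 9 genes were Sox1, Pax6, Neurod1, Nes, Ina, Nefm, Nefl, Tubb3 and Stmn2. Every probe that the scanner files name for 1 of them was taken, which gave 13 of the 55681 probes on the array, printed on 23 spots. No probe was found for them under an older name. The 12 one-colour arrays, 1 per sample, held mouse embryonic stem cells (mESC), with 4 Tbx3-high and 4 Tbx3-low samples by their labels, and mouse induced pluripotent stem cells (iPSC), 2 samples labelled Tbx3 null and 2 labelled Tbx3 wild type. The iPSC are cells reprogrammed to pluripotency. The labels give no strain, line, clone, culture medium or time, no account of the way cells were split by Tbx3 level, and no part of Tbx3 that the null allele lacks. Nor do they state that replicates were grown separately, so a p-value here reflects the spread between these samples, which may be technical. That spread was pooled over all 4 groups, so the p-values of the iPSC rest in part on the spread between mESC samples. All mESC arrays lay on 1 slide and all iPSC arrays on another, so levels were compared within the mESC and within the iPSC.

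Sox1, Pax6 and Neurod1 encode transcription factors that act at successive steps of the path from neuroectoderm to neuron. Intermediate filaments change along that path: dividing neural progenitors build them from nestin (Nes), while neurons assemble neurofilaments from light, medium and heavy chains together with alpha-internexin (Ina). Neurons also carry their own tubulin isotype, Tubb3, and the stathmin Stmn2, which binds tubulin dimers and destabilises microtubules in growth cones. Pluripotent cells in culture are not neurons, and RNA of several of these genes can still be measured in them.

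Levels are log2 signals relative to the 75th percentile of the probes on the same array, so 0 is the level of that percentile. Levels of different probes were not set against each other, because probes differ in how well they bind. That percentile ranged from 314 to 458 signal units for the mESC and from 699.8 to 1007 for the iPSC, and no spot was saturated. Spots well above background made up 55.9% to 64.8% of an mESC array, 68.0% and 68.6% of the wild-type iPSC arrays and 62.4% and 63.0% of the null-labelled ones. The single Tbx3 probe was at 7.03 to 7.12 in the Tbx3-high and at 5.72 to 5.76 in the Tbx3-low cells, and the change was 1.33 ± 0.08 (SE, adjusted p = 7.25e-07). In the iPSC it was not lower under the null label (5.48 and 5.51) than in the wild type (5.0 and 5.35). That iPSC change, 0.32 ± 0.11 (adjusted p = 0.0482), failed the test in 9 of 13 alternative settings, and the probe does not check the label, since the labels do not say which part was deleted. All 12 of the pluripotent cell markers examined, Pou5f1, Nanog and Sox2 among them, were well above background on every array of each of the 4 groups. Most of 28 neuron markers were also well above background on every array of a group. They were 23 in the Tbx3-low, 21 in the Tbx3-high, 24 in the wild-type and 23 in the null-labelled cells. Of the 28, Gria2, Scg2 and Slc17a6 were not well above background in any of the 4 groups, and 1 further gene was dim in each (Chgb in the mESC, Gad2 in the iPSC).

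The probes that decide how these genes can be read are shown first, 5′ to 3′, as the array's design gives them, with positions from mm9. Pax6 has a pair of probes that gave unlike readings, and both are printed whole. The file spreads the 60 bases of the first over 852 bases of the plus strand, chr2:105524098-105524949, and places the second, which is on 2 spots, at chr2:105536454-105536513.
Pax6 A_52_P469306: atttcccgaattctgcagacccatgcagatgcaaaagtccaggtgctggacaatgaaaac
Pax6 A_55_P2022946: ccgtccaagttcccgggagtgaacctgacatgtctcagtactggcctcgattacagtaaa

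Sox1 also has 2 probes, on the plus strand at chr8:12397503-12397562 and chr8:12399496-12399555. The former holds 73.3% G and C, the latter 43.3%. The first is printed whole and the second over 30 bases.
Sox1 A_55_P2012051: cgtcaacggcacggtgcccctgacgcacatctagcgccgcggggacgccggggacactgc
Sox1 A_55_P2012056: ttctgatgaggtAATAAAagaacacccctc

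Capitals mark AATAAA, the letters of the canonical polyadenylation signal. The probes of Nes (chr3:87784303-87784362), Stmn2 (chr3:8561545-8561604) and Tubb3 (chr8:125945850-125945909), all on the plus strand, hold the same letters and are shown over 30 bases around them.
Nes A_55_P1953728: ctctcttcctcccttgAATAAAgctgtatc
Stmn2 A_55_P2068673: caagctgtgatgAATAAAgaattggagttc
Tubb3 A_55_P2041828: aggggtatacttAATAAAgttactgctgtc

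Nefm, the gene with the widest range, has 1 probe printed on 10 spots, on the minus strand at chr14:68738193-68738252. It is printed whole and holds no AATAAA.
Nefm A_51_P145220: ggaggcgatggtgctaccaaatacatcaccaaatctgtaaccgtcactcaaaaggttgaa

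The remaining probes lie at chr14:68705638-68705698 for Nefl, at chr19:47099350-47099409 and chr19:47098781-47098840 for Ina, and at chr2:79293621-79293680 and chr2:79294309-79294368 for Neurod1. Nefl and Ina are on the plus strand and Neurod1 is on the minus strand. Exons and untranslated regions are not annotated here, as no mm9 annotation was used.

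The first comparison set Tbx3-high against Tbx3-low mESC. In the former Sox1 (by probe A_55_P2012056 only), Nefm and Stmn2 were higher and the filament genes Nes and Ina were lower, by 1.65-fold to 2.73-fold. Of the 13 probes, 11 were tested, and 6 of them passed at a Benjamini-Hochberg adjusted p under 0.05, 3 higher and 3 lower. Over all 30691 probes tested, 25.9% passed, 14.5% higher and 11.4% lower. A probe was tested if each array of 1 compared group or of both read it well above background, and both Pax6 probes failed this in the mESC. The 11 probes had a median change of -0.03, against 0.04 over all probes. Groups did not overlap for 7 of the 11, against 29.2% of all probes. Of the 11 tested probes, 4 both passed and differed by at least 2-fold, against 3.61% of all probes.

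The second comparison asked how the same genes differ between null-labelled and wild-type iPSC. In the null-labelled cells Ina rose 15.0-fold and 12.6-fold by its 2 probes, Tubb3 and Neurod1 rose, and Nefm and Nefl fell. Only there was Pax6 probe A_55_P2022946 well above background on both of its spots, and the other Pax6 probe was not tested. Here 12 of the 13 probes were tested and 9 passed, 7 higher and 2 lower, while 28.3% of the 36712 probes tested did, 15.5% higher and 12.9% lower. Nefm, Pax6 A_55_P2022946 and Neurod1 A_52_P408391 entered the test through 1 group only, the one where they were high, so their p-values carry that selection. Of the 9 probes read well above background on every array of both groups, 6 passed, 5 higher and 1 lower, against 28.3% of 32878 such probes. Their median change was 0.40, against 0.09 over those probes. In the mESC all 11 tested probes were read in both groups, and 25.5% of 28577 such probes passed. Groups did not overlap for 10 of the 12, which is common with 2 arrays a group: 66.4% of all probes did the same. Of the 12 tested probes, 8 passed with a difference of at least 2-fold, against 9.69% of all probes. Both counts include Nefm, Pax6 A_55_P2022946 and Neurod1 A_52_P408391, whose entry through 1 group alone favours a large difference. The others among the 8 were both Ina probes, Nefl, Tubb3 and Neurod1 A_55_P2004972. In bulk RNA, fewer cells of a type and less RNA per cell cannot be told apart, in these results and in those below.

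**Figure D1:**
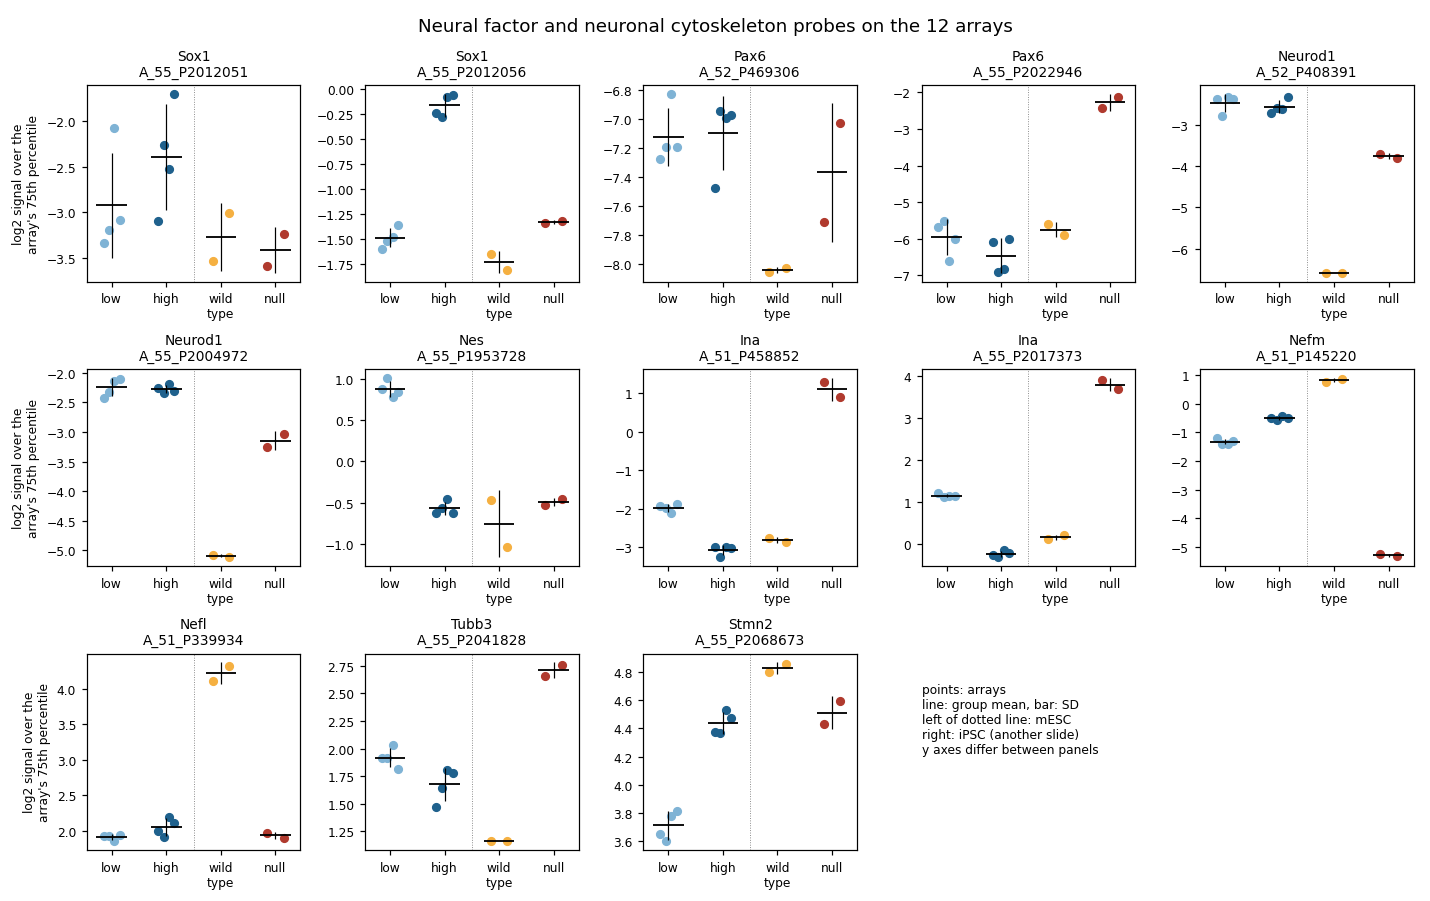
Each panel plots 1 probe, with a point for each array (4 Tbx3-low, 4 Tbx3-high, 2 wild type, 2 null-labelled), the group mean as a line and its SD as a bar, on the y axis of log2 signal over the array's 75th percentile; y axes differ between panels. The Nefm panel falls from 0.78 and 0.87 in the wild type to -5.25 and -5.33 under the null label, while both Ina panels rise.

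Sox1, a SRY-box factor that is among the earliest markers of neuroectoderm, was read by 2 probes. Its probe A_55_P2012056 was at -1.60, -1.52, -1.48 and -1.37 on the Tbx3-low arrays and at -0.24, -0.29, -0.08 and -0.06 on the Tbx3-high arrays. Every Tbx3-high array lay above every Tbx3-low array. The rise was 2.50-fold, 1.32 ± 0.08 on the log2 scale (SE, adjusted p = 9.43e-07). In the iPSC this probe was at -1.66 and -1.81 in the wild type and at -1.34 and -1.32 under the null label, a rise of 0.40 ± 0.11 (adjusted p = 0.0231). That smaller call was lost on leaving out null-labelled replicate 1 (adjusted p = 0.0807) or 2 (0.0883), or replicate 2 of the wild type (0.140), while the change stayed between 0.32 and 0.48 over the alternatives. The call was also lost with the iPSC arrays fitted alone (adjusted p = 0.0920).

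The GC-rich Sox1 probe A_55_P2012051 spread much more widely within groups. It was at -3.34, -3.20, -2.08 and -3.08 in the Tbx3-low and at -3.09, -2.26, -2.52 and -1.70 in the Tbx3-high mESC. The groups overlapped, and the change of 0.53 (95% interval -0.18 to 1.24, adjusted p = 0.268) did not pass. That interval includes 0 and ends below the 1.32 of the other probe. In the iPSC it was at -3.54 and -3.01 in the wild type and at -3.59 and -3.24 under the null label, a change of -0.14 (95% interval -1.2 to 0.92, adjusted p = 0.875).

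Pax6, the paired box factor of the eye field and of forebrain progenitors, was near or below background in 3 of the 4 groups. Its 2-spot probe A_55_P2022946 was at -5.67, -5.52, -6.62 and -6.00 in the Tbx3-low and at -6.09, -6.91, -6.81 and -6.02 in the Tbx3-high mESC, dim in both. In the wild-type iPSC it was at -5.61 and -5.89, with 1 of the 2 spots well above background on each array. Under the null label it was at -2.44 and -2.12, with both spots well above background on both arrays. With the main background handling, Pax6 was therefore at least 10.6-fold higher under the null label (adjusted p = 0.000109, from a test it entered through the null-labelled arrays). The measured change of 3.47 shrank to 1.21 with normexp background correction and to 1.97 in the deposited series table, and passed in both. The other Pax6 probe, A_52_P469306, was not well above background on any of the 12 arrays, between -8.05 and -6.83, and was not tested.

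Neurod1, a basic helix-loop-helix factor of neuronal and endocrine differentiation, did not pass in the mESC by either probe. Probe A_55_P2004972 was at -2.42, -2.32, -2.14 and -2.10 in the Tbx3-low and at -2.25, -2.34, -2.20 and -2.31 in the Tbx3-high cells. The groups overlapped, and the difference of -0.03 had a 95% interval of -0.22 to 0.16 (adjusted p = 0.847). The difference of probe A_52_P408391 was -0.09, with a 95% interval of -0.34 to 0.16 (adjusted p = 0.611).

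In the iPSC both Neurod1 probes rose under the null label. Probe A_55_P2004972 was at -5.08 and -5.11 in the wild type and at -3.26 and -3.04 under the null label, 3.85-fold higher (1.94 ± 0.12, adjusted p = 2.42e-06). Probe A_52_P408391 was at -6.58 and -6.59 in the wild type, where it was not well above background, and at -3.71 and -3.80 under the null label. With the main background handling it was at least 4.12-fold higher there (adjusted p = 1.14e-06, from a test entered through the null-labelled arrays alone). Both changes were smaller in size under other background handling: 0.59 and 0.54 with normexp and 0.92 and 0.90 in the deposited series table, all past the threshold.

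Nes, the intermediate filament of neural progenitors, fell in the Tbx3-high mESC. It was at 0.88, 1.01, 0.79 and 0.84 on the Tbx3-low arrays and at -0.63, -0.56, -0.45 and -0.63 on the Tbx3-high arrays. No array of one group reached the other, and Nes was 2.73-fold lower (-1.45 ± 0.11, adjusted p = 5.62e-06). In the iPSC Nes was at -0.47 and -1.04 in the wild type and at -0.53 and -0.46 under the null label. These groups overlapped, with a change of 0.26 (95% interval -0.10 to 0.62, adjusted p = 0.277). One wild-type array decided that value: without wild-type replicate 1 the change was 0.55 and passed (adjusted p = 0.0172), and without wild-type replicate 2 it was -0.02.

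Ina, which encodes alpha-internexin, fell in the Tbx3-high mESC and rose under the null label in the iPSC, by both of its probes. Probe A_55_P2017373 was at 1.2, 1.12, 1.13 and 1.13 in the Tbx3-low and at -0.28, -0.32, -0.16 and -0.22 in the Tbx3-high cells. This was a fall to a level 2.62-fold lower (-1.39 ± 0.07, adjusted p = 3.14e-07). Probe A_51_P458852 was at -1.94, -1.98, -2.12 and -1.87 in the Tbx3-low and at -2.99, -3.25, -2.99 and -3.03 in the Tbx3-high cells, 2.12-fold lower (-1.09 ± 0.10, adjusted p = 2.32e-05). Groups did not overlap for either probe. The change of A_51_P458852 was -0.62 with normexp and -0.68 in the deposited series table.

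In the iPSC the Ina probe A_55_P2017373 was at 0.10 and 0.19 in the wild type and at 3.91 and 3.69 under the null label. In signal units this was 1079 and 1053 against 13874 and 9058. The rise was 12.6-fold (3.66 ± 0.10, adjusted p = 6.86e-09). Probe A_51_P458852 went from -2.75 and -2.87 to 1.30 and 0.89, a rise of 15.0-fold (3.90 ± 0.15, adjusted p = 6.15e-08). The 2 Ina probes, which share no base of the transcript, thus gave the same direction in each comparison. The summed level of the 28 neuron markers, in units of the 75th percentile, was 27.3 to 27.4 in the wild type and 28.3 to 29.9 under the null label, and its part in the rise was not tested.

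Nefm, the medium neurofilament chain, showed the largest change of the 13 probes. It was at -1.21, -1.39, -1.40 and -1.29 in the Tbx3-low and at -0.50, -0.58, -0.41 and -0.51 in the Tbx3-high mESC. All Tbx3-high arrays were above all Tbx3-low arrays, and Nefm was 1.77-fold higher (0.83 ± 0.07, adjusted p = 1.01e-05).

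In the wild-type iPSC Nefm was at 0.78 and 0.87, and under the null label at -5.25 and -5.33. The measured log2 difference was -6.11 (adjusted p = 1.19e-10, from a test entered through the wild-type arrays alone). The null-labelled signal lay at the edge of detection, with 6 of 10 spots well above background on replicate 1 and 5 of 10 on replicate 2. Taking each null-labelled array no lower than its lowest signal well above background, Nefm was at least 67.3-fold lower with the main background handling. With normexp, which adds an offset to all signals, the change was -3.49 and still passed.

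The 10 spots of the Nefm probe allow a check within each array. After removal of flagged spots, 8 to 10 spots an array remained. Their log2 SD was 0.03 to 0.12 on the mESC and wild-type iPSC arrays and 0.28 and 0.37 on the null-labelled arrays. The lowest wild-type spot read 1525 signal units and the highest null-labelled spot 31.8. Every wild-type spot was thus above every null-labelled spot. In the mESC the highest Tbx3-low spot read 170.0 and the lowest Tbx3-high spot 188.

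**Figure D2:**
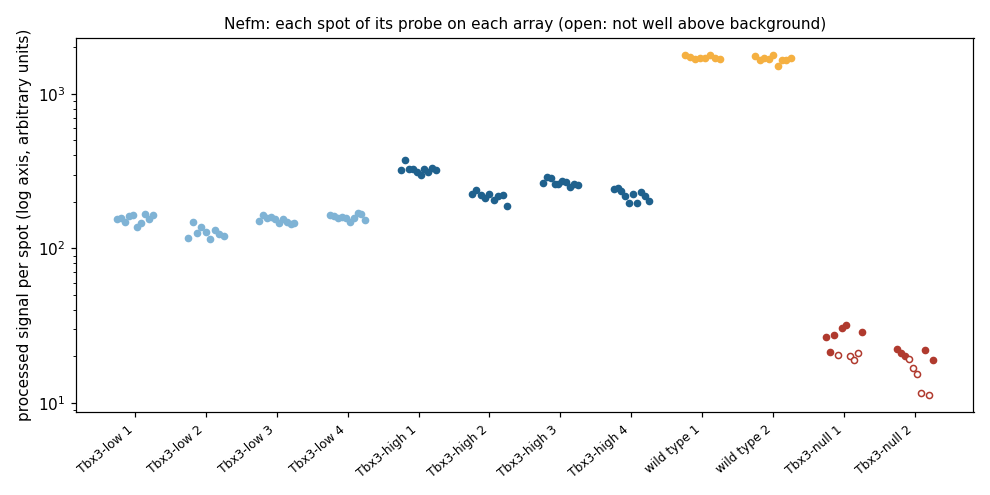
Processed signal of each unflagged spot of the Nefm probe on each of the 12 arrays, on a log axis in arbitrary units; open points are spots not well above background. The wild-type spots lie between 1525 and 1794 and the null-labelled spots between 11.2 and 31.8.

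Nefl, the light neurofilament chain that forms the core of the filament, is the neighbour of Nefm on chromosome 14. In the mESC it was at 1.93, 1.93, 1.86 and 1.94 on the Tbx3-low and at 2.0, 1.91, 2.20 and 2.11 on the Tbx3-high arrays. The groups overlapped, and the change of 0.14 had a 95% interval of -0.03 to 0.31 (adjusted p = 0.226). In the iPSC Nefl was at 4.11 and 4.33 in the wild type and at 1.97 and 1.90 under the null label, 4.86-fold lower (-2.28 ± 0.11, adjusted p = 3.82e-07). The light and medium chains were therefore lower under the null label, where Ina, which assembles with them in neurons, was higher. The heavy chain Nefh changed by -0.34 there and did not pass (adjusted p = 0.0573). It fell by 0.31 in the Tbx3-high mESC (adjusted p = 0.0182), where Nefm rose.

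Tubb3, the neuronal beta-tubulin, was at 1.91, 1.92, 2.03 and 1.82 in the Tbx3-low and at 1.47, 1.65, 1.80 and 1.78 in the Tbx3-high mESC. The groups did not overlap, but the change of -0.24 ± 0.08 missed the threshold (adjusted p = 0.0549). It passed under 5 of 21 alternatives, among them quantile normalization (adjusted p = 0.0235) and leaving out Tbx3-high replicate 3 (0.0420). In the iPSC Tubb3 was at 1.16 on both wild-type arrays and at 2.66 and 2.76 under the null label. This was a rise of 2.92-fold (1.55 ± 0.12, adjusted p = 9.40e-06).

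Stmn2 was brightly measured in every group. It was at 3.65, 3.60, 3.78 and 3.82 in the Tbx3-low and at 4.37, 4.37, 4.53 and 4.47 in the Tbx3-high mESC. The Tbx3-high arrays were all higher, by 1.65-fold (0.72 ± 0.08, adjusted p = 4.67e-05). In the iPSC it was at 4.79 and 4.85 in the wild type and at 4.43 and 4.60 under the null label. The groups did not overlap, and the change of -0.31 ± 0.11 missed the threshold (adjusted p = 0.0534). It passed with quantile normalization, at -0.47 (adjusted p = 0.00682), and in the deposited series table, at -0.56 (0.00102).

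**Figure D3:**
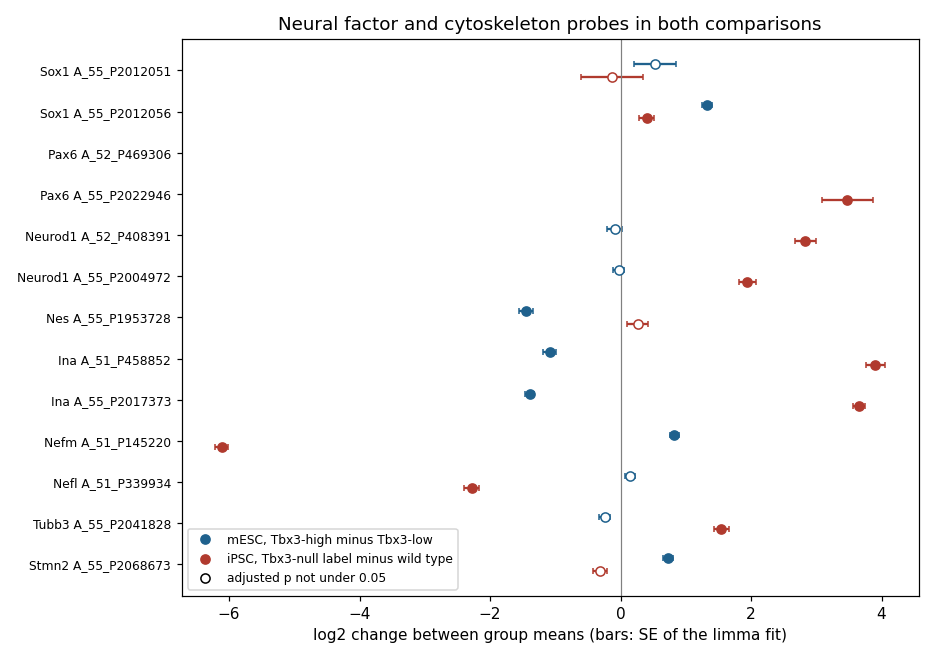
Log2 change of each tested probe with the SE of the fit, Tbx3-high minus Tbx3-low in the mESC and null label minus wild type in the iPSC; open points did not pass. Ina moves to the left in the mESC and to the right in the iPSC, Nefm does the reverse, and Sox1 A_55_P2012056 moves to the right in both.

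All mESC changes that passed also passed within each row of the slide. In row 1, which holds replicates 1 and 2, and in row 2, which holds replicates 3 and 4, the changes were 1.30 and 1.35 for Sox1 A_55_P2012056, -1.54 and -1.36 for Nes, and -1.46 and -1.32 for Ina A_55_P2017373. For Ina A_51_P458852 they were -1.16 and -1.01, for Nefm 0.76 and 0.89 and for Stmn2 0.74 and 0.70. With the row as a block the same number of probes, 6, passed. Tbx3-low and Tbx3-high arrays lay in different columns of the slide, as did wild-type and null-labelled arrays, so column and group cannot be told apart.

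A further test asked whether the genes responded alike in the mESC and the iPSC. It took high minus low in the mESC, less wild type minus null in the iPSC, so that equal changes give 0. A probe entered this test through any 1 of the 4 groups, and Pax6 A_55_P2022946 did so through the null-labelled arrays alone. With all 4 groups required to be well above background, 8 probes passed, 6 above and 2 below. Over all probes 8406 passed under that requirement, 5255 above and 3151 below. The number tested under it was not recorded, so no share is set beside the 8. Of the 12 probes tested without that requirement, 11 differed from 0, 8 above and 3 below, against 23% of 37071 probes, 12.8% above and 10.1% below. Nefm and both Ina probes passed in the mESC and in the iPSC, and their changes differed in size. Nefm rose by 0.83 from Tbx3-low to Tbx3-high mESC and changed by -6.11 from wild-type to null-labelled iPSC (difference -5.29, adjusted p = 3.50e-09). Ina A_55_P2017373 fell by 1.39 and rose by 3.66 in the same order (difference 2.26 ± 0.12, adjusted p = 1.29e-06). Nefl, both Neurod1 probes and Tubb3 passed only in the iPSC, and Nes and Stmn2 only in the mESC. Pax6 A_55_P2022946 was not tested in the mESC. Sox1 A_55_P2012056 ran in opposite directions, being higher in Tbx3-high than in Tbx3-low mESC and higher in null-labelled than in wild-type iPSC (difference 1.72 ± 0.14, adjusted p = 2.25e-05). Nes differed the other way round, with its larger change in the mESC (difference -1.19 ± 0.20, adjusted p = 0.00213).

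Other genes of the same families were taken from fixed lists, with each gene read by its brightest probe. Of 32 other neuronal cytoskeleton genes, 30 were tested in the iPSC, of which 17 rose, 4 fell and 9 did not pass under the null label. Over all 17349 genes tested, 35.1% passed, 19.7% higher and 15.3% lower. The median change of the 30 was 0.51, against 0.07 over all genes. The 4 largest were Gap43, a membrane protein of growth cones, at 2.33 ± 0.10 (adjusted p = 1.69e-07), Crmp1, a collapsin response mediator, at 2.27 ± 0.10 (1.88e-07), Prph, the peripheral neuron filament peripherin, at 1.75 ± 0.11 (2.42e-06), and the microtubule-associated Map1b at 1.66 ± 0.10 (1.43e-06).

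In the mESC the same list split nearly evenly: of 30 tested, 9 rose and 10 fell in the Tbx3-high cells, with a median of -0.11. Over all 15567 genes tested, 31.3% passed, 17.3% higher and 14% lower, with a median of 0.04. The largest were the kinesin Kif1a at -1.55 ± 0.11 (adjusted p = 3.48e-06), the stathmins Stmn3 at 1.38 ± 0.09 (1.63e-06) and Stmn4 at -1.25 ± 0.15 (0.000155), and Crmp1 at -1.10 ± 0.07 (1.61e-06). Stmn2 and Stmn3, of 1 family, thus rose where Stmn4 fell. In the test of the difference, 14 of 30 were above 0 and 2 below, and 29% of 17509 genes passed. The largest were Gap43 at 1.97, Stmn3 at 1.89, Kif5a, a neuronal kinesin, at 1.87 and Dpysl3, a relative of Crmp1, at 1.57.

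**Figure D4:**
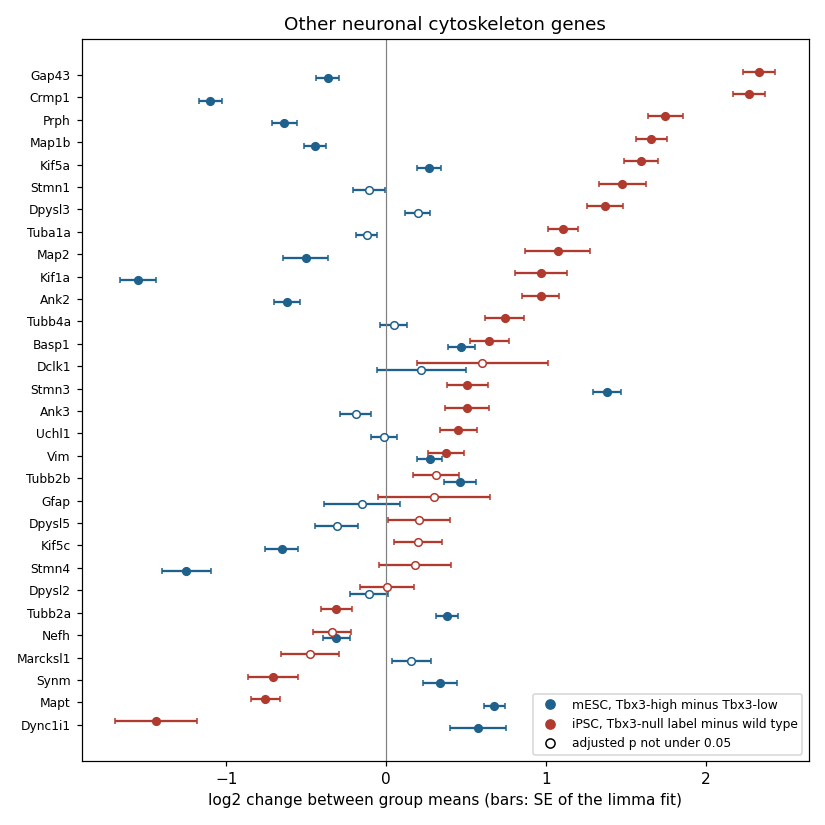
Log2 change with SE of the tested genes of the neuronal cytoskeleton list, by the brightest probe of each, in the mESC and in the iPSC, ordered by the iPSC change; open points did not pass. Gap43 and Crmp1 lie farthest to the right in the iPSC and left of 0 in the mESC.

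Of 50 further neural transcription factors, 31 were tested in the mESC, where 5 rose, 9 fell and 17 did not pass, against 31.3% of all genes passing, with a median of 0.06. In the iPSC 33 were tested, where 10 rose, 4 fell and 19 did not pass, against 35.1% of all genes passing, with a median of 0.25. The largest change in both was that of Insm1, a zinc finger factor of neuroendocrine differentiation, at -2.48 ± 0.13 in the mESC (adjusted p = 4.11e-07) and at 3.05 ± 0.19 in the iPSC (1.77e-06). Neurog3, a basic helix-loop-helix factor, fell by 1.05 in the mESC and rose by 1.52 in the iPSC. In the mESC Zic2 fell by 1.15 and Olig2 rose by 0.99. In the iPSC Sox11 rose by 1.33, and the homeobox gene Lhx2 changed by -1.44. In the test of the difference 36 were tested, with 5 above 0 and 3 below, against 29% of all genes passing. The largest were Lhx2 at -1.38, Otx2 at -1.26, Sox11 at 1.04 and Zic1 at 0.98. The call of Otx2 was lost without null-labelled replicate 2 (-0.91, adjusted p = 0.0706) and without wild-type replicate 1 (-0.90, 0.0821).

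Synaptic, secretory and neuronal RNA-binding genes gave no common direction. Of 28, 23 were tested in the mESC, where 5 rose, 4 fell and 14 did not pass (median -0.12), and 24 in the iPSC, where 7 rose, 3 fell and 14 did not pass (median 0.30). Over all genes 31.3% and 35.1% passed. In the Tbx3-high mESC the 4 largest changes that passed were all falls. The synapsins Syn2 and Syn1 fell by 1.24 and 0.71, the RNA-binding Elavl3 by 0.80 and the GABA-synthesising enzyme Gad1 by 0.77. The 5 genes that rose changed by less, Cplx1 among them at 0.52 ± 0.16 (adjusted p = 0.0347). Under the null label the granin Chgb rose by 2.49, Ncam1, a neural cell adhesion molecule, by 1.0 and Rbfox3, a splicing factor of mature neurons, by 0.90, and the glutamate receptor subunit Grin1 fell by 2.13. Rbfox3 did not pass when the iPSC arrays were fitted alone (adjusted p = 0.0532), and Syn1 and Gad1 each did not pass in 1 slide row alone. In the difference 24 were tested, with 5 above 0 and 3 below, against 29% of all genes.

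REST is the zinc finger repressor that keeps neuronal genes silent outside neurons, and 12 genes of its complex were measured in every group. In the mESC 2 rose, 2 fell and 8 did not pass, a share near the 31.3% of all genes. Rest itself fell by 0.42 ± 0.09 in the Tbx3-high cells (adjusted p = 0.00607) and the phosphatase gene Ctdsp2 fell by 0.27, while the corepressors Rcor2 and Rcor1 rose by 0.41 and 0.27. The call of Ctdsp2 was lost in 10 of 21 alternatives, among them the replicate block (adjusted p = 0.0591) and 5 settings that left out 1 array. In the iPSC 2 rose, 3 fell and 7 did not pass, against 35.1% of all genes passing. Rcor2 rose by 0.73, while Rcor1 and Ctdsp2 changed by -0.53 and -0.51. Ctdsp2 did not pass with the iPSC arrays fitted alone (adjusted p = 0.0612) or without wild-type replicate 2 (0.0507). In the difference 2 of the 12 were above 0 and 1 below, against 29% of all genes. In the mESC the calls of Rest and Rcor2 were lost in 2 of 21 alternatives each, the single slide rows (Rest with an adjusted p of up to 0.135), and that of Rcor1 in 4.

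RefSeq promoter windows, 250 bases before to 50 after a start site on GRCm38.p6, were found for Sox1, Pax6 (2 starts), Neurod1, Nes, Tubb3 and Ina. The windows of Ina (chr19:47014431-47014730) and Tubb3 (chr8:123411303-123411602), both on the plus strand, are printed because both genes rose under the null label and only these 2 of the 7 windows hold GGACAG, the right-hand part of the RE1 element that REST binds, on either strand. It stands in capitals, at position -164 from the start in Ina and on the minus strand, as CTGTCC, at position 13 in Tubb3.
Ina promoter: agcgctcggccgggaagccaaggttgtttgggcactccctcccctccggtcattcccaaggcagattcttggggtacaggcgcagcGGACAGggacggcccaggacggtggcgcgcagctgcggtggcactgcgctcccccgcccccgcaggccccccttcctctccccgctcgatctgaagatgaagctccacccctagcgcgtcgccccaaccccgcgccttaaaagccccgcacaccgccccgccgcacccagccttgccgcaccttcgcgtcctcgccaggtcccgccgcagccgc
Tubb3 promoter: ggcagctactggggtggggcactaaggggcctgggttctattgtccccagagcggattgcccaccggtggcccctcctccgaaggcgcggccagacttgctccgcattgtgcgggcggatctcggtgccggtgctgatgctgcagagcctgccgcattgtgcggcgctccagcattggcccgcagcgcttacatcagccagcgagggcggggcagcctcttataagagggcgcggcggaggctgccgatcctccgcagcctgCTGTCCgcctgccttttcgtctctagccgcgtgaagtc

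GGACAG was found in 22.2% of the 32851 windows of the table, so its presence in 2 of 7 is a description only. The left-hand part of RE1, TTCAGCACC (0.371% of windows), the T-box core GGTGTGA (3.98%) and TATAAA (13.6%) were in none of the 7. All were searched on both strands, and none of the matches overlapped.

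The genes next to the members on the chromosome were looked up after the members' values were seen. Values given for them are log2 changes, Tbx3-high minus Tbx3-low in the mESC and null label minus wild type in the iPSC. On the other side of Nefl from Nefm, Dock5 was at 0.72 ± 0.07 in the mESC (adjusted p = 2.16e-05) and at -0.30 ± 0.10 in the iPSC (0.0393), against -2.28 for Nefl and -6.11 for Nefm in the iPSC. Beyond Nefm, A230070E04Rik was at -0.62 in the iPSC (adjusted p = 0.0685) and 0.09 in the mESC (0.717). Beside Ina, Nt5c2 and Pcgf6 rose under the null label by 0.83 (adjusted p = 0.00214) and 0.52 (0.0171), and in the mESC they were at -0.06 (0.731) and -0.37 (0.0140). Beside Tubb3, Def8 rose by 0.87 in the iPSC (adjusted p = 0.000988) and was at -0.11 in the mESC (0.427). Hey1, beside Stmn2, had the opposite sign to it in both, at -0.42 in the mESC (adjusted p = 0.0194) and 0.59 in the iPSC (0.0233). Crabp2, a retinoic acid binding protein next to Nes, fell in the Tbx3-high mESC by 1.12 (adjusted p = 1.56e-05) and rose under the null label by 0.90 (0.00118).

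Among 14856 other genes, those whose level followed a member most closely over the 8 mESC arrays were named for each probe well above background on all 8. For Nes they were the ephrin ligand Efnb2 and the growth factor Fgf15 (r = 0.997 for both). For Nefm they were Smarcd3, a chromatin remodelling subunit, and Robo1, an axon guidance receptor (0.996 each). Ina A_55_P2017373 was followed by Klf6 and Slc35f2 (0.999 each), Ina A_51_P458852 by Tmem184a and Akt1 (0.997 each), Sox1 A_55_P2012056 by Mmp17 and Mras (0.998 each), and Stmn2 by Ckap4 (0.998) and Zfp59. These correlations mostly restate the difference between the groups, since the 8 arrays form 2 separate sets of levels. For probes whose mESC change did not pass, the closest genes were at 0.982 and 0.979 for Nefl (Ano10 and Htt), 0.978 and 0.975 for Tubb3 (Smchd1 and Prorp), 0.988 and 0.979 for Neurod1 A_55_P2004972 (Uck2 and Mbd2), 0.938 and 0.936 for Neurod1 A_52_P408391 (Vwa1 and Smg8) and 0.967 and 0.965 for Sox1 A_55_P2012051 (Tsc1 and Tmem65). All these r are the highest 2 of 14856 over 8 arrays, so they are high by selection, and none was tested. The likeness did not extend to the iPSC in each case. Under the null label Efnb2 changed by 1.36 and Fgf15 by 0.53 where Nes changed by 0.26. Smarcd3 and Robo1 changed by -0.60 and -0.32 where Nefm changed by -6.11. Tmem184a changed by -1.48 and Akt1 by 0.92 where Ina A_51_P458852 changed by 3.90. Mmp17 and Mras changed by -0.66 and -0.73 where Sox1 A_55_P2012056 changed by 0.40.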

How the data were processed

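The 13 probes and the gene lists were chosen with earlier results of these data known. The deposited scanner files hold an intensity per spot from Agilent Feature Extraction (version 10.7.3.1, per the file headers), which subtracted background to give the processed signal and used mm9 probe positions. Per the labels' protocols, Cy3 was put on 50 ng of RNA per sample. The deposited series table holds log2 values made by the authors, with scale, centring and background handling not given in the sources used here, and served as an alternative only. Outlier-flagged spots (110 to 208 an array) were removed, log2 processed signals were centred on each array's 75th percentile, and spots of a probe were averaged. A group counted as dim for a probe when, on each array, fewer of its spots were well above background than not. For a group dim in whole or in part, the fold is a bound: each of its arrays was taken no lower than the lowest signal well above background on it. The bound applies to the processed signal only. Normexp gave smaller changes for Pax6, both Neurod1 probes and Nefm in the iPSC, and for Ina A_51_P458852 in the mESC, among others. Gene names came from RefSeq: 27656 probes by accession, 3401 by symbol and 307 by synonym. 1 synonym match to a member was refused, as it is another gene.

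The 12 arrays entered 1 limma fit (limma 3.58.1, R 4.3.3) of 4 group means, 8 residual degrees of freedom and Benjamini-Hochberg adjustment over all probes tested, and the code was tested on simulated data. Tables and figures used Python 3.11.15, pandas 2.3.3 and matplotlib 3.10.9. The number of arrays limits the precision. Named genes were every member probe, at most 4 passing genes of each other list per comparison by size of change, and the 2 genes of most similar pattern for each member probe. The lists were neural factors, neuronal cytoskeleton, synapse and neuronal RNA genes, the REST complex, glia, neural crest, pluripotent cell and fibroblast markers, and some listed genes are not reported here by name. The check used does not show that replicate numbers pair the mESC samples. Same-numbered samples correlated at 0.135 to 0.288 in their deviations from group means, over 28577 probes. Some samples with unlike numbers in the same slide row correlated more strongly. Tbx3-low replicate 1 and Tbx3-high replicate 2 were at 0.4018, and Tbx3-low replicate 4 and Tbx3-high replicate 3 at 0.2955. Alternatives covered normalization, background, the series table, filters, 1 probe per gene, blocks, slide rows and each array left out.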

Additional observations from a re-analysis of the deposited data

Results flagged for a closer look

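Among 26 groups of 4 mESC arrays, 4 held an array far from the other arrays of its group, and chance marks about 1 group in 20. They were Ina A_51_P458852 on Tbx3-high replicate 2 (-3.25, the lowest), Nefl on Tbx3-low replicate 3 (1.86, the lowest), Neurod1 A_52_P408391 on Tbx3-low replicate 2 (-2.78, the lowest) and Pax6 A_52_P469306 on Tbx3-high replicate 1 (-7.48, the lowest). Without these arrays the changes that passed for Ina still passed, and Nefl and Neurod1 still did not.

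The response differed between mESC and iPSC for 11 probes, by limma's test of (high minus low) minus (wild type minus null) with Benjamini-Hochberg adjustment. The differences that were largest in size were -5.29 for Nefm, 2.96 for Pax6 A_55_P2022946 (adjusted p = 0.00170), 2.82 for Ina A_51_P458852 (adjusted p = 5.34e-06) and 2.74 for Neurod1 A_52_P408391 (adjusted p = 1.21e-05). They were 2.26 for Ina A_55_P2017373, 1.91 for Neurod1 A_55_P2004972 (adjusted p = 2.24e-05), 1.72 for Sox1 A_55_P2012056 and 1.30 for Tubb3 (adjusted p = 0.000209). Nefl differed by -2.14 (adjusted p = 5.00e-06) and Nes by -1.19. Stmn2 differed by 0.41 (adjusted p = 0.0480), a call lost in 15 of 19 alternatives. Since Pax6 was dim in the mESC, Neurod1 A_52_P408391 in the wild-type iPSC and Nefm at the edge of detection under the null label, the sizes for these 3 probes rest partly on signals at background.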

How the results depend on the processing

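Of 612 values of the 13 probes under alternatives, 572 kept their direction and their side of the threshold, 22 no longer passed, 11 newly passed and 7 turned direction. The count of the 13 probes that passed was 6 to 7 in the mESC, 7 to 10 in the iPSC and 8 to 11 for the difference. With the replicate block it was 6 in the mESC and 8 in the iPSC, where Sox1 A_55_P2012056 no longer passed (adjusted p = 0.144); no other member call changed. Among the iPSC calls of other named genes, the block left Rcor1 (0.0792) and Ctdsp2 (0.0896) short of the threshold. Whether the iPSC numbers pair samples is not decided by the check. With 2 arrays a group it gives 1 value apart from its sign (-0.0114 for same-numbered samples). Leaving out each array gave 6 to 7, 8 to 10 and 10 to 11 calls in the same order, and over all probes 6633 to 7292 in the mESC, 6952 to 8480 in the iPSC and 5703 to 7957 for the difference. Over all probes, the mESC count of 7946 became 3875 in slide row 1 alone, 3549 in row 2 alone and 4693 at an adjusted p under 0.01. The iPSC count of 10398 became 6693 with 1 probe per gene and 6398 at an adjusted p under 0.01. The smaller counts in single rows come with fewer samples and those with 1 probe per gene with fewer probes tested.

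Direction turned only for changes that did not pass, apart from Olig1. For Neurod1 A_55_P2004972 in the mESC the values were 0.000313 in the series table, 0.00590 and 0.0202 without Tbx3-low replicates 3 and 4, and 0.0772 in slide row 1 alone; leaving out each array gave -0.0883 to 0.0202. For Nes in the iPSC the value was -0.0242 without wild-type replicate 2, the low end of -0.0242 to 0.548 over arrays left out. For Sox1 A_55_P2012051 in the iPSC it was 0.0402 without null replicate 1 and 0.128 without wild-type replicate 2, the high end of -0.404 to 0.128. The difference for Olig1, a glial factor dim under the null label, was -2.13 (adjusted p = 0.0223) and became 0.228 with normexp, 0.0213 in the series table and 0.0498 with signals no lower than the lowest well above background, a setting chosen after seeing the data. The cause was not tested. Signals near background limit Pax6, Neurod1 A_52_P408391 in the wild-type iPSC and Nefm under the null label. Neurod1 A_55_P2004972 was well above background but low in the wild-type iPSC (-5.08 and -5.11). Its iPSC change shrank from 1.94 to 0.59 with normexp.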

Other observations

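Genes of neural crest and glia were read beside the neural genes. Over all genes tested, 31.3% passed in the mESC (17.3% higher, 14% lower), 35.1% in the iPSC (19.7% higher, 15.3% lower) and 29% in the difference, and the counts of each list below stand against these shares. Of 9 neural crest genes, 7 were tested in the mESC, of which 4 rose in the Tbx3-high cells and 0 fell by limma's adjusted p: Tfap2a by 1.10 ± 0.17 (SE, adjusted p = 0.000647), Snai2 by 1.07 ± 0.11 (5.01e-05), Foxd3 by 0.88 ± 0.11 (0.000210) and Ngfr by 0.73 ± 0.13 (0.00169). Their summed level was 3.37 to 4.01 in the Tbx3-low and 5.42 to 6.63 in the Tbx3-high cells, in units of the 75th percentile. In the iPSC 8 were tested and 1 passed, with a change of -2.56 ± 0.24 for Tfap2a under the null label (adjusted p = 3.72e-05). In the difference 2 of 8 were above 0 and 1 below. Of 10 glial genes, 8 were tested in the mESC, where 3 rose and 1 fell, and 7 in the iPSC, where 2 rose and 2 fell. Mbp, which encodes myelin basic protein, changed by -1.40 between the mESC groups and by 1.53 between the iPSC groups. Aldh1l1, an astrocyte marker, changed by 0.86 and -0.97 in the same order. In the difference 1 glial gene of 8 was above 0 and 1 below.

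Of the 12 pluripotent cell markers, 5 rose and 2 fell in the Tbx3-high mESC, with changes of 0.76 for Klf4 and 0.50 for Esrrb. In the iPSC 2 rose under the null label, Dnmt3l by 1.08, and 4 of 12 were above 0 in the difference. Their summed level was 524 to 560 in the Tbx3-low, 610 to 640 in the Tbx3-high, 485 to 504 in the wild-type and 584 to 591 in the null-labelled cells. Of 14 fibroblast markers, 8 were tested in the mESC, where 2 rose and 1 fell. The changes were 1.83 for Pdgfrb, 1.54 for Col1a1 and -1.36 for Tagln. In the iPSC 11 were tested, where 3 rose and 2 fell, with changes of -2.32 for Col1a1 and -2.22 for Pdgfrb. In the difference 2 of 11 were above 0 and 2 below. Their summed level was 6.54 to 7.68 in the Tbx3-low, 4.90 to 29.6 in the Tbx3-high, 5.09 to 5.40 in the wild-type and 5.08 to 5.80 in the null-labelled cells.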
